A study of Mus musculus with 24 samples.

Results

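The nuclear-encoded subunits of the mitochondrial respiratory chain and ATP synthase were followed in mouse liver and brain. Members were chosen by gene symbol: names starting with Nduf followed by a, b, c, s or v and a number (complex I), Sdha to Sdhd (complex II), Uqcr (complex III), Cox4 to Cox8 (complex IV) and Atp5 (complex V, the ATP synthase), without names marked as pseudogenes. The rule found 90 of the 55797 gene names: 42 for complex I, 4 for complex II, 8 for complex III, 19 for complex IV and 17 for complex V. The group was proposed because its transcripts stood higher in db/db livers on brazzein than in those on sucrose. The drink comparisons within db/db liver are therefore given here as descriptions. The same holds for the comparison of the response to brazzein against sucrose between genotypes. The symbols are those of the files, and some have since been renamed (Atp5a1, Atp5b and Atp5o among them). Ndufa4, placed under complex I by its name, is a complex IV subunit, and Cox7a2l, placed under complex IV, is a supercomplex assembly factor.

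The study sequenced poly(A) RNA of male C57/BL6 mice that drank water, sucrose or brazzein for 16 weeks. Brazzein is a sweet-tasting plant protein. Each of the 12 groups held 2 libraries: liver or brain, from db/db or db/+ mice, on 1 of the 3 drinks. The db/db mouse carries mutant copies of the leptin receptor gene only and is a model of obesity and type 2 diabetes, whereas db/+ mice keep a functional copy. Titles and a second label field name different genotypes for 12 of the 24 samples. The titles were followed, and every genotype difference here rests on them. The labels do not state that the 2 libraries of a group came from different animals, and p-values therefore measure the spread between these libraries. The brain region was not given.

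Complexes I and II feed electrons from NADH and succinate into ubiquinone, complex III passes them to cytochrome c, and complex IV hands them to oxygen. Complexes I, III and IV pump protons out of the mitochondrial matrix, and complex V makes ATP from the returning protons. Except in complex II, a few core subunits are encoded by mitochondrial DNA, and all the others are encoded in the nucleus, translated in the cytosol and imported. Liver uses this chain to oxidise fatty acids and to support gluconeogenesis, and neurons depend on it for most of their ATP. The factors NRF1, GABP (of the ETS family) and YY1 are known regulators of many of these genes.

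Promoter windows of 300 bases (250 before to 50 after the transcription start) were taken from RefSeq for mouse GRCm38.p6, and 69 of the 90 members matched by symbol. The files themselves use GRCm39. The windows were searched on both strands for 3 cores: GCGCATGC (NRF1), CCGGAAG (ETS) and AAGATGGC (YY1). The last 3 letters of the ETS core are the first 3 of the YY1 core, so 1 stretch can hold both, which no member window did. The NRF1 core was in 10 of 69 member windows (14.5%) and in 2.8% of all 27025 windows. The ETS core was in 16 (23.2%), against 9.12% of all windows, and the YY1 core in 9 (13%), against 2.88%. At least 1 of the 3 was in 30 of 69 windows (43.5%). All 9 YY1 matches lay in windows of complex I (7) and complex V (2). A match is a run of letters and does not show that a factor binds there. To show what these control regions look like, the 150 bases before the start are printed for 1 member of each complex that holds a match there, 5′ to 3′ on the gene's strand. Capitals mark the NRF1 core in Ndufa8, Sdhb and Atp5k (2 overlapping copies, 1 on each strand, in Atp5k) and the ETS core in Uqcrh and Cox6a1.
Ndufa8, complex I accessory subunit (chr2:36049339-36049488, minus strand): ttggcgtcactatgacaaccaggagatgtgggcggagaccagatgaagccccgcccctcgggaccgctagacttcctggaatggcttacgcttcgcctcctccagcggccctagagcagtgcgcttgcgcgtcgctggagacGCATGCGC
Sdhb, complex II iron-sulfur subunit (chr4:140961121-140961270, plus strand): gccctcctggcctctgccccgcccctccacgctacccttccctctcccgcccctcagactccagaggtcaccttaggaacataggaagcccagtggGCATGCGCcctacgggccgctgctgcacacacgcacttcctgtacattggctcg
Uqcrh, complex III hinge protein (chr4:116075071-116075220, minus strand): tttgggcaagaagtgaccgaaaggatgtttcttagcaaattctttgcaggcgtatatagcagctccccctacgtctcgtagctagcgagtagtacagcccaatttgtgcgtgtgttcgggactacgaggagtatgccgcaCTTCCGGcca
Cox6a1, complex IV subunit (chr5:115348959-115349108, minus strand): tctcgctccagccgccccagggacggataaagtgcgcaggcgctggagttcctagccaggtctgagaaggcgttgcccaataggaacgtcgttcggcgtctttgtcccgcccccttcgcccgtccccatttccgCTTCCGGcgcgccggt
Atp5k, complex V subunit e (chr5:108434400-108434549, minus strand): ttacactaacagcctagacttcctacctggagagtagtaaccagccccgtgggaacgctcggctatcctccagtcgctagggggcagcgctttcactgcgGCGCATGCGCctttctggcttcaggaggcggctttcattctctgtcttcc

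Total estimated counts per library ranged from 60384569 to 79385804 in liver and from 58287665 to 77772849 in brain. Members took 1.48 to 2.27% of all counts in liver and 1.26 to 1.41% in brain. After the filter on low counts, 83 members were tested in liver and 85 in brain. The tissue labels were checked against markers: the summed level of 5 hepatocyte genes was at least 64068 CPM in every liver library and at most 1251 CPM in every brain library, and 6 neuronal genes summed to at least 5689 CPM in brain and at most 9.84 CPM in liver. CPM are read counts relative to library size, scaled by the TMM method over the 12 libraries of a tissue. The second db/+ brazzein liver library stood apart in the 13 protein-coding transcripts of mitochondrial DNA, whose median was 0.82 below the liver mean on the log2 scale. The estimated counts of the 2 db/+ brazzein livers correlated better with the coverage deposited for the other library of the pair (0.935 and 0.938) than with their own (0.915 and 0.900), so their numbering is uncertain.

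Transcripts of the members were more abundant per length in liver than in brain for most subunits. Levels between genes were compared as FPKM, which divide by transcript length. Of 80 members with a mean of at least 1 CPM in both tissues (Ndufa13 left out), 66 had the higher mean FPKM in liver and 14 in brain. The median FPKM in liver was 100 for complex I, 96.0 for complex II, 271 for complex III, 237 for complex IV and 267 for complex V. In brain the corresponding medians were 70.0, 78.5, 118, 141 and 145. In both tissues the medians of complexes I and II were thus lower than those of complexes III to V, although single subunits overlapped. In liver, for example, Ndufb9 of complex I was at 333 FPKM and Uqcrc2 of complex III at 94.3.

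The highest level in both tissues belonged to Cox4i1, the main isoform of the largest nuclear-encoded complex IV subunit, at 680 ± 113 FPKM in liver and 556 ± 39.5 in brain (SD, 12 libraries each). Within complex II, Sdha, the flavoprotein that oxidises succinate, was at 86.0 ± 25.2 FPKM in liver and 131 ± 3.53 in brain. Its partner Sdhb was at 170 ± 42.6 in liver and 101 ± 6.38 in brain. The membrane anchors Sdhc and Sdhd were at 58.2 ± 14.5 and 106 ± 21.5 in liver and at 26.5 ± 1.39 and 56.2 ± 3.11 in brain. Sdha was thus the only complex II subunit with the higher mean FPKM in brain. The catalytic beta subunit of ATP synthase, Atp5b, was also lower in liver (394 ± 90.9 FPKM) than in brain (544 ± 24.1). Uqcrq, a small complex III subunit, showed a wide difference in the opposite direction, with 448 ± 67.1 FPKM in liver and 68.4 ± 4.10 in brain. Ndufs1, the large iron-sulfur subunit of complex I, was at 17.98 ± 7.82 FPKM in liver and 38.8 ± 8.99 in brain, and Ndufv1, which binds NADH, was at 79.8 ± 14.2 and 83.6 ± 6.49. The core protein Uqcrc1 was at 140 ± 25.99 and 158 ± 10.5, and the Rieske protein Uqcrfs1 at 157 ± 26.5 and 75.4 ± 3.99, in liver and brain respectively. Cox8a was at 328 ± 48.9 in liver and 405 ± 12.9 in brain, whereas Cox7c was at 447 ± 93.9 and 177 ± 8.25.

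**Figure D1:**
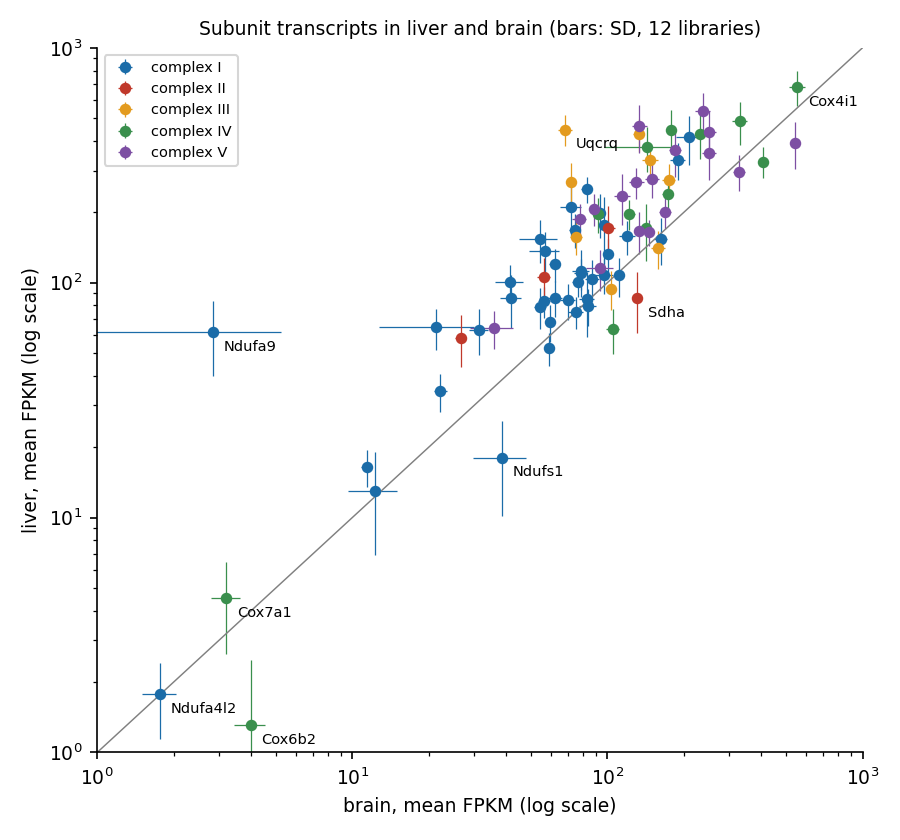
Mean FPKM of 80 members in brain (horizontal, log scale) and liver (vertical, log scale), coloured by complex, with bars for the SD over 12 libraries (bars below 1 FPKM are clipped) and a line of equal levels. Of the 80 points, 66 lie above the line, with Ndufa9 and Uqcrq farthest above it, and 14 lie below it, Sdha and Ndufs1 among them.

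In the fit over all 24 libraries, 80 of 87 members tested were called higher in liver and 5 lower (edgeR quasi-likelihood test, Benjamini-Hochberg adjusted p under 0.05), beside 84.5% of all 25725 genes tested (33.9% higher and 50.6% lower). The members' median log2 difference in counts was 1.44, and that of all genes was -0.61. The scaling between tissues matters here: with DESeq2's size factors the median of all genes moved to -0.71 and that of the members to 1.34. With the trend of expression on transcript length taken out of each library, the members' median was 0.25, with 59 of 87 above 0. The 5 called lower in liver were isoforms of complex IV: Cox6b2, Cox4i2, Cox8b, Cox7b2 and Cox6a2. All 4 members of complex II, 8 of complex III and 17 of complex V were called higher in liver. Sdha, Atp5b and Uqcrc1 were among them, although their mean FPKM was higher in brain, so the direction depended on the measure. The largest differences toward liver were those of Ndufa9 (5.46 ± 0.37, SE), Uqcrq (3.34 ± 0.06), Uqcrb (2.81 ± 0.06) and Atp5e, the epsilon subunit of ATP synthase (2.68 ± 0.07), with adjusted p of 2.26e-09, 5.62e-16, 4.84e-15 and 2.42e-14. The counts of Ndufa9 are uncertain, as described below.

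Complex IV has tissue isoforms, and both tissues used the same ones. Cox6a1, the widely expressed isoform, was at 487 ± 102 FPKM in liver and 330 ± 21.4 in brain, while the heart and muscle isoform Cox6a2 was at 0.047 ± 0.073 and 4.24 ± 0.52. Cox6b1 was at 428 ± 91.3 and 231 ± 10.3, and the testis isoform Cox6b2 at 1.31 ± 1.16 and 3.99 ± 0.57. Cox4i2, best known from lung, was at 0.19 ± 0.13 in liver and 1.69 ± 0.28 in brain. Cox7a2 was at 197 ± 29.1 and 122 ± 5.94, and the muscle isoform Cox7a1 at 4.53 ± 1.92 and 3.20 ± 0.42. Cox8b was at 0.094 ± 0.085 and 1.02 ± 0.31, Cox8c was listed at 0 in all 24 libraries, and Cox7b2 was listed at 0 in 13 of them. Of another paralog pair, Ndufa4 was at 416 ± 97.7 FPKM in liver and 209 ± 23.0 in brain, and Ndufa4l2 at 1.77 ± 0.63 and 1.77 ± 0.26. In all, 7 members were under 1 CPM in both tissues (Cox6c2, Cox7b2, Cox8b, Cox8c, Ndufa11b, Ndufb11b and Ndufs6b).

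Some complex I members had values that changed from library to library without regard to group. Ndufa13 was listed at 0 in 22 of 24 libraries, yet at 62.0 CPM in the first db/db water liver and at 42.4 CPM in the second db/db brazzein brain. Ndufa9 ranged from 2.51 to 16.9 CPM over the brain libraries, and Ndufs1 from 21.4 to 115 CPM over the liver libraries. How the authors' counting divided reads among related transcripts is not given in the sources used here, so the levels of these 3 genes are uncertain. Other complex I members ranged widely too: Ndufb1 from 6.34 to 43.6 CPM over the brain libraries and Ndufa3 from 47.1 to 206 CPM over the liver libraries.

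In liver, 4 members were higher and 6 lower in db/db than in db/+ mice when the 3 drinks were averaged. These 10 of 83 by edgeR stood beside 15.2% of all 19352 genes tested (7.91% higher and 7.27% lower), a share no larger than the background. DESeq2 called 13 members and 4848 of all genes. The members' median log2 difference was -0.03, equal to that of all genes, and 34 members lay above 0 and 49 below. At an unadjusted p under 0.05 there were 23 members, beside 31.6% of all genes. The genotypes did not overlap in 2 members, beside 8.43% of all genes. In bulk tissue, fewer cells of a type and less RNA per cell cannot be told apart.

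Ndufs7, the complex I core subunit that carries an iron-sulfur cluster next to the ubiquinone site, showed the clearest difference. Its level was 122 to 155 CPM in the 6 db/+ livers (median 140) and 71.1 to 118 CPM in the 6 db/db livers (median 90.1). The genotypes did not overlap. The log2 difference was -0.60 ± 0.06 (SE), with an adjusted p of 0.00168 (edgeR), and the call held when any 1 of the 12 libraries was left out. The other members called lower were Ndufb10, a complex I membrane-arm subunit (-0.35 ± 0.08, adjusted p = 0.0244), Atp5h and Atp5o of the ATP synthase stalk (-0.32 ± 0.08, adjusted p = 0.0366, and -0.29 ± 0.06, adjusted p = 0.0210), and Uqcrh, the hinge protein of complex III (-0.27 ± 0.07, adjusted p = 0.0369). In these 4 the genotypes overlapped, and the db/db brazzein libraries lay among the db/+ values or above them. Uqcrh, for example, was at 245 and 263 CPM in db/db brazzein liver, 149 and 144 CPM in db/db sucrose liver and 196 to 263 CPM in db/+ liver. Cox6b2 was at 0.80 to 2.96 CPM in db/+ and 0.17 to 0.70 CPM in db/db liver, without overlap (-2.20 ± 0.38, adjusted p = 0.00967), at levels far below those of its paralog.

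Of the members called higher in db/db liver, Sdha was at 324 to 477 CPM (median 405) in db/db and at 225 to 420 CPM (median 264) in db/+ liver. The genotypes overlapped through 1 library, the second db/+ brazzein liver at 420 CPM, which also stood apart in mitochondrial DNA transcripts. The log2 difference of Sdha was 0.53 ± 0.13 (adjusted p = 0.0303, edgeR), and without that library it was 0.67. Uqcrc2, a core protein of complex III, was at 251 to 305 CPM in db/db and 186 to 254 CPM in db/+ liver (0.32 ± 0.07, adjusted p = 0.0227). Ndufa10, a complex I accessory subunit, was at 179 to 252 CPM and 159 to 179 CPM (0.31 ± 0.07, adjusted p = 0.0203). The fourth, Cox4i2, stayed under 0.5 CPM in every liver library and was listed at 0 in both db/+ brazzein libraries. Its fitted difference of 2.70 depends on those zeros.

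**Figure D2:**
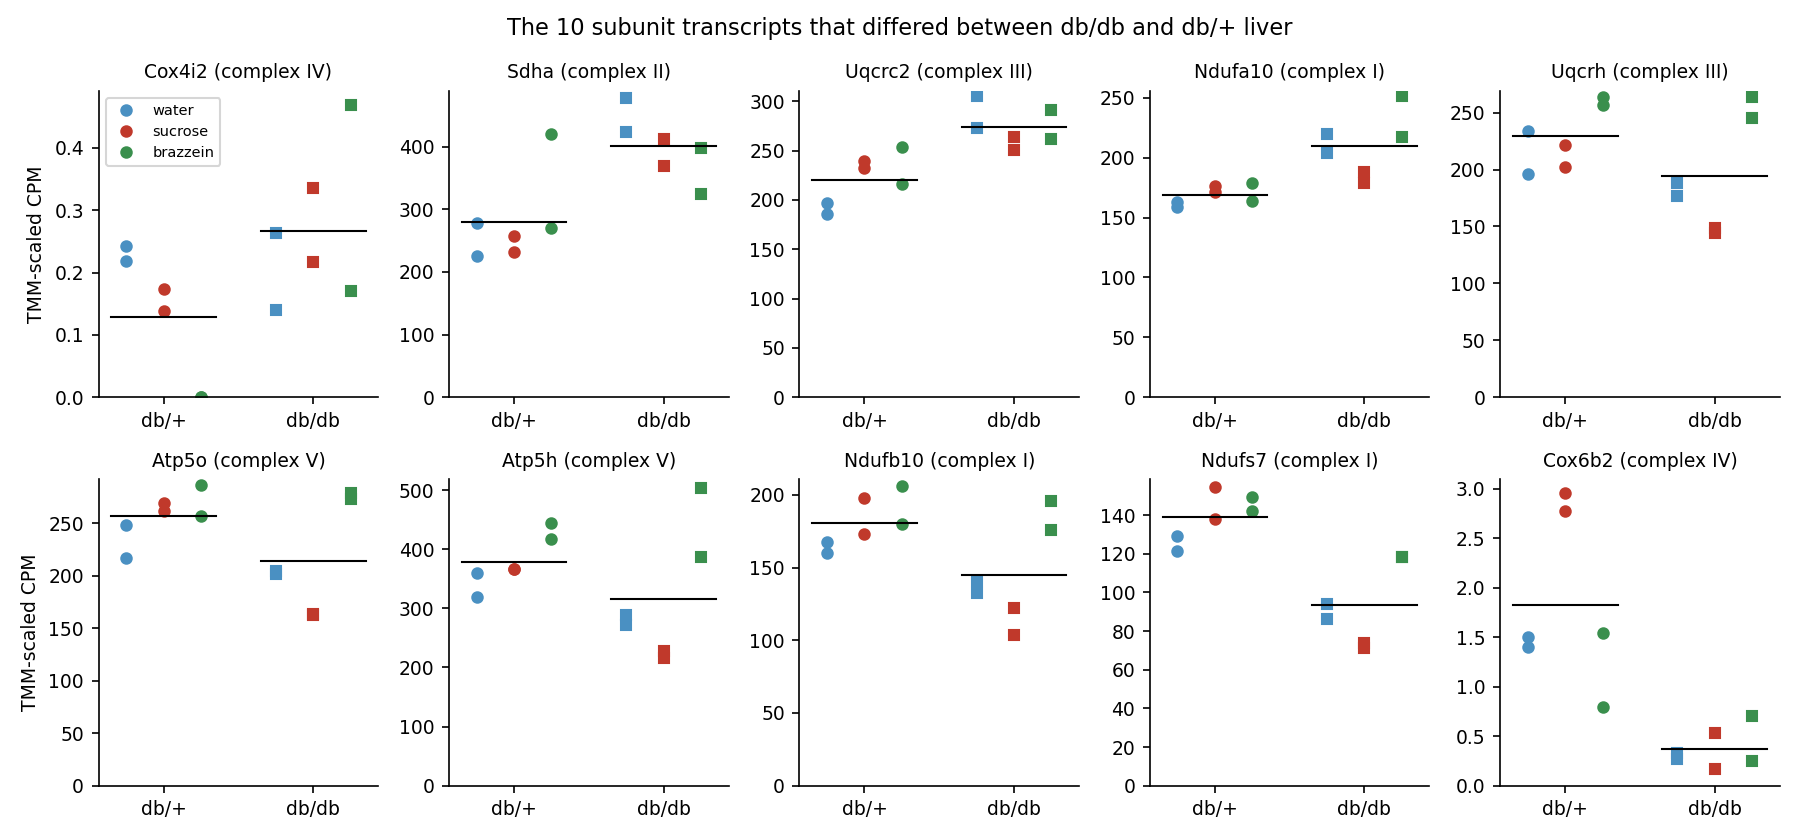
TMM-scaled CPM (vertical, from 0) of the 10 members called between db/db and db/+ liver, 1 panel each, with 1 point per library coloured by drink and a line at the mean of 6 libraries. Ndufs7 and Cox6b2 separate the genotypes, whereas in Uqcrh, Atp5o, Atp5h and Ndufb10 the db/db brazzein libraries reach the db/+ range.

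Which libraries decide these calls was examined by leaving out each in turn. The count of 10 ranged from 2 (without the second db/db water or the second db/db sucrose liver) to 14 (without the second db/+ brazzein liver). It was 4 without the second db/+ water or the first db/db sucrose liver, and 5 without either db/+ sucrose, the first db/db water or the first db/db brazzein liver. Ndufs7 and Cox6b2 kept their calls in all 12 such fits, Cox4i2 in 10, Ndufa10 in 9, Uqcrc2 in 6, Ndufb10 in 5, Sdha in 4, Atp5o in 3, and Atp5h and Uqcrh in 1 each. With the length trend taken out, Atp5h (-0.17, adjusted p = 0.253), Ndufb10 (-0.26, adjusted p = 0.109) and Uqcrh (-0.11, adjusted p = 0.480) were no longer called, and Uqcrh and Atp5h also lost their calls with the replicate number as a block (adjusted p = 0.0589 and 0.0546).

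Within single drinks, genotype comparisons rest on 2 libraries against 2. On water, no member was called by edgeR, beside 1.51% of all genes. At an unadjusted p under 0.05 there were 9 of 83 members, beside 19.6% of all genes. DESeq2 called 6 members, beside 2132 of 19352 genes. The smallest p-values were those of Uqcrc2, Ndufs7 and Atp5a1, the alpha subunit of ATP synthase. Uqcrc2 was at 273 and 305 CPM in db/db and 197 and 186 CPM in db/+ liver (0.60 ± 0.12, adjusted p = 0.0628, edgeR). Atp5a1 was at 1086 and 1147 CPM against 722 and 666 CPM (0.69 ± 0.18, adjusted p = 0.0937), and Ndufs7 at 94.0 and 86.2 CPM against 122 and 129 CPM (-0.48 ± 0.11, adjusted p = 0.0792). The values of the 2 genotypes did not overlap in any of the 3, which held for 50 of 83 members and 58.1% of all genes. The 4 complex II subunits were all above 0, with a median of 0.41. Without either db/+ brazzein liver, 3 members were called.

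On sucrose, 2 members were called by edgeR, both lower in db/db liver, beside 0.868% of all genes. At an unadjusted p under 0.05 there were 42 members, beside 16.3% of all genes. DESeq2 called 20 members, all lower in db/db liver, beside 1590 of 19352 genes. Ndufs7 was at 73.7 and 71.2 CPM in db/db and at 155 and 138 CPM in db/+ liver (-1.02 ± 0.11, adjusted p = 0.0163, edgeR). Atp5o, the subunit that joins the stalk to the catalytic head of ATP synthase, was at 163 and 164 CPM against 262 and 270 CPM (-0.70 ± 0.11, adjusted p = 0.0362). Of the 83 members, 73 were below 0 and 10 above, with a median of -0.38 beside 0.00 for all genes. The shift was shared by complexes I (-0.43), III (-0.41), IV (-0.25) and V (-0.41), and complex II stood at -0.07. With the length trend taken out, the members' median was -0.02 (36 above and 47 below 0), and 1 member was called. The count was 0 without any 1 of the 4 sucrose livers, 4 without either db/+ brazzein liver, and 1 without any of the other 6, and Atp5o kept its call only without a db/+ brazzein liver. The db/db sucrose libraries in this comparison are also those of the contrast by which the group was proposed.

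On brazzein, Cox4i2 was the only member called by edgeR, beside 1.58% of all genes. At an unadjusted p under 0.05 there were 13 members, beside 17.5% of all genes. DESeq2 called 5 members, each higher in db/db, beside 1912 of 19352 genes. Cox4i2 had 0.17 and 0.47 CPM in db/db liver and was listed at 0 in db/+ liver, and its call was kept in 1 of 12 fits with a library left out, the one without the first db/db brazzein liver. The members' median was 0.22 (74 of 83 above 0) and 0.10 with the length trend taken out. Here too, the db/db brazzein libraries are those of the contrast by which the group was proposed. Ndufs7 was at 118 and 118 CPM in db/db and 149 and 142 CPM in db/+ liver, so it lay lower in db/db liver on all 3 drinks.

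Other mitochondrial genes were compared between genotypes in the same liver fit, in which 7.91% of all genes were called higher and 7.27% lower. Of 14 tricarboxylic acid cycle genes, 3 were called higher and none lower: Suclg2, a succinyl-CoA ligase subunit (0.81), Cs, citrate synthase (0.68), and Dld, shared by the 2-oxoacid dehydrogenases (0.49). The median of that list was 0.19, beside -0.03 for all genes tested. Of 51 assembly factors tested, 4 were called higher, among them Nubpl (1.43) and Acad9 (0.78), which act in complex I assembly, and Coa6 (0.68), which acts in complex IV assembly. Their median was 0.02. Of 19 electron carriers and entry enzymes, 3 were called higher and 1 lower: Gpd2, the mitochondrial glycerol-3-phosphate dehydrogenase, was higher (1.09), Coq4 of ubiquinone synthesis was higher (0.81), and Etfb, which carries electrons from fatty acid oxidation, was lower (-0.67). Of 6 nucleotide and phosphate carriers, 2 were called higher, the ADP/ATP carriers Slc25a5 (0.58) and Slc25a4 (0.68). None of the 13 transcripts of mitochondrial DNA was called. Of 77 mitochondrial ribosomal proteins, 1 was called higher and 6 lower (median -0.07), and of 84 cytosolic ribosomal proteins 53 were called lower (median -0.39). All these differences are edgeR log2 values with an adjusted p under 0.05.

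Some markers of other cell types were called between genotypes in the same libraries, beside 15.2% of all genes called. Of 5 erythroid genes, 4 were called higher in db/db liver, with summed levels of 1101 to 3708 CPM in db/db and 659 to 1214 CPM in db/+ libraries. Of 5 Kupffer cell and macrophage genes, 1 (Cd68) was called higher, and their sums were 85.4 to 163 CPM and 47.02 to 181 CPM. Lyve1 of the 4 endothelial genes and Col1a1 of the 4 stellate cell genes were called higher as well, with list sums of 38.9 to 101 against 24.5 to 51.6 CPM and of 141 to 230 against 111 to 212 CPM. Serpina1a was called lower among the 5 hepatocyte genes, whose sums were 64068 to 92928 CPM in db/db and 64807 to 87000 CPM in db/+ liver. Cidea was called higher among 4 brown fat genes, whose sums were 70.8 to 200 CPM in db/db and 0 to 0.62 CPM in db/+ liver, while Ucp1, the defining marker of brown fat, was listed at 0 in every liver library. Except for brown fat, the sums of these lists overlapped between genotypes. Single markers of brain cell types were called in liver as well: Slc1a2 lower, and Mbp, Olig1 and Cx3cr1 higher. The part of cell types in the members' differences was not tested.

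Drinks were then compared within db/+ liver, where no member was called. For sucrose against water the members' median was 0.09 (6 members at an unadjusted p under 0.05, 0 called by DESeq2), beside 0.0155% of all genes called and 5.98% at that p. For brazzein against water it was 0.20 (25 members at an unadjusted p under 0.05, 1 called by DESeq2), beside 0.00517% and 6.06%. For brazzein against sucrose it was 0.17 (11 members, and 1 called by DESeq2), beside 0.0207% and 8.75%. The first median was 0.0041 without the first db/+ water liver and 0.16 without the second. The second was 0.31 without the second db/+ water liver, and the third was 0.032 without the first db/+ brazzein liver. These 3 comparisons share libraries, and DESeq2 called 225, 175 and 440 of all genes in them. The smallest p-values included Sdhb, at 286 and 413 CPM on brazzein, 214 and 213 CPM on water and 234 and 214 CPM on sucrose. Its difference from water was 0.71 ± 0.18 (adjusted p = 0.760, edgeR) and was 0.41 without the second db/+ brazzein liver and 0.97 without the first. Ndufs3, a complex I core subunit, was at 188 and 225 CPM on brazzein and 139 and 142 CPM on water (0.55 ± 0.14, adjusted p = 0.760). Ndufa7 was at 179 and 156 CPM on brazzein and 128 and 130 CPM on sucrose (0.38 ± 0.13, adjusted p = 0.471). Cox4i2, listed at 0 on brazzein, also ranked among the smallest. For sucrose against water the smallest were Ndufa8 (0.37 ± 0.11, adjusted p = 0.682), Atp5g1, an isoform of the ATP synthase c subunit (0.32 ± 0.11, adjusted p = 0.736), and Ndufv2 of the NADH-oxidising module (0.25 ± 0.09, adjusted p = 0.759).

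In db/db liver, the members were highest on brazzein, intermediate on water and lowest on sucrose. For each library, the median deviation of the members from their liver mean was taken on the log2 scale. It was 0.30 and 0.40 on brazzein, -0.08 and -0.05 on water and -0.36 and -0.41 on sucrose. In db/+ liver the corresponding values were 0.24 and 0.09, -0.15 and 0.02, and 0.02 and -0.03. The 3 drinks did not overlap in db/db liver, whereas water and sucrose overlapped in db/+ liver. Complex II departed from the others: its db/db sucrose medians were -0.06 and -0.15, and its lowest value was that of the second db/+ water liver (-0.45).

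**Figure D3:**
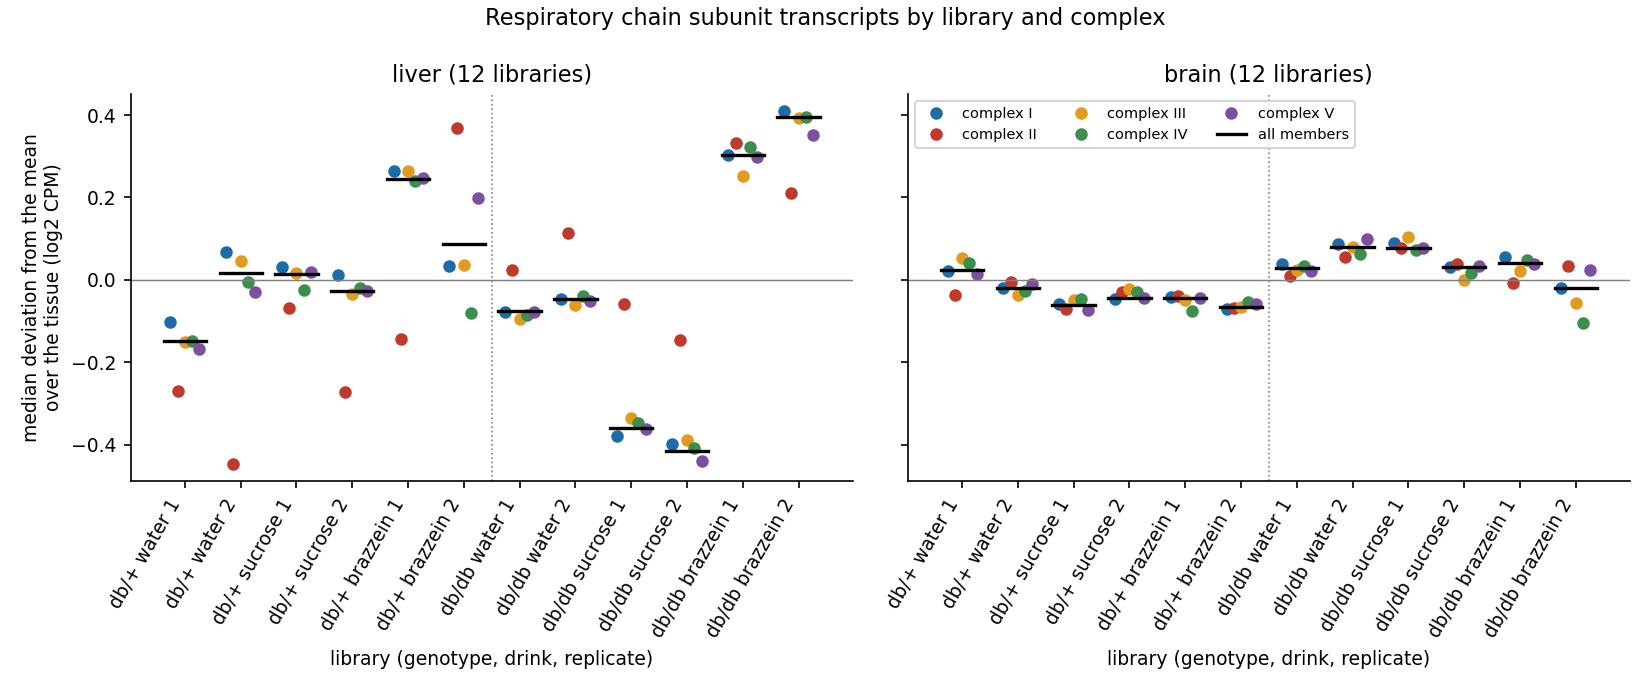
Median deviation of each complex (points) and of all members tested (black bars) from the mean over the 12 libraries of a tissue, on the log2 scale, for liver (left) and brain (right), with db/+ and db/db libraries parted by a dotted line. The liver bars run from -0.41 in db/db sucrose to 0.40 in db/db brazzein, and the brain bars stay between -0.07 and 0.08.

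The members with the smallest p-values between the 2 sweet drinks in db/db liver were Ndufv2, Atp5l and Atp5h. Atp5h was at 387 and 504 CPM on brazzein, 289 and 272 CPM on water and 227 and 215 CPM on sucrose. In db/+ liver it was at 444 and 418, 318 and 359, and 367 and 367 CPM on the same drinks. Its log2 difference for brazzein minus sucrose was 1.01 ± 0.14 (SE) in db/db and 0.23 ± 0.14 in db/+ liver. Atp5l, the membrane subunit g, was at 348 and 438 CPM on brazzein and 209 and 209 CPM on sucrose in db/db liver (0.91 ± 0.13). Ndufv2 was at 220 and 220 CPM on brazzein and 138 and 136 CPM on sucrose in db/db liver (0.68 ± 0.10), and at 181 and 181 CPM on brazzein and 185 and 181 CPM on sucrose in db/+ liver (-0.01 ± 0.09). The 3 highest differences were all in complex I: Ndufa9 (1.21 ± 0.29), Ndufa5 (1.12 ± 0.21) and Ndufa2 (1.11 ± 0.17), the first of them a gene with uncertain counts.

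At the other end, some members lay near 0. Sdha was at 397 and 324 CPM on brazzein and 412 and 370 CPM on sucrose (-0.12 ± 0.22). The ATP synthase subunits Atp5b (0.12 ± 0.21) and Atp5a1 (0.15 ± 0.18), the core protein Uqcrc2 (0.11 ± 0.12) and the membrane anchor Sdhd (0.14 ± 0.23) likewise lay near 0 with overlapping libraries. Sdha, Atp5a1, Atp5b and Uqcrc2 have some of the longest transcripts among the members. However, Sdhc, with one of about 3098 bases, differed by 0.77. Ndufb2, with the longest at about 3522 bases, was not near 0 either. The 3 lowest differences belonged to Sdha and to 2 genes near 0 counts, Ndufs6b (-0.89 ± 1.39) and Cox6c2 (0.01 ± 0.80). The quartiles over the members were 0.61 and 0.85. Among other subunits, Ndufb8 (0.80 ± 0.12), Sdhb (0.68 ± 0.18), Sdhc (0.77 ± 0.17), Uqcr10 (0.78 ± 0.13), Cox4i1 (0.79 ± 0.12) and Uqcrfs1 (0.65 ± 0.13) lay between them. Ndufa7 (0.88 ± 0.13), Cox6a1 (0.87 ± 0.14) and Cox7c (0.90 ± 0.16) lay above the upper quartile, and Uqcrc1 (0.40 ± 0.18), Ndufv1 (0.55 ± 0.14) and Cox8a (0.54 ± 0.15) below the lower. Cox5a (0.96 ± 0.28) and Ndufs1 (0.71 ± 0.74) varied more between libraries.

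Over the 83 members tested, the median difference of brazzein from sucrose in db/db liver was 0.72, with 81 above 0, beside -0.03 for all genes. Between brazzein and water it was 0.43 (77 above 0), and between sucrose and water -0.31 (5 above 0). No member was called in any of the 3 comparisons with edgeR, beside 0.16%, 0.119% and 0.00517% of all genes. At an unadjusted p under 0.05 there were 68, 46 and 24 members (14.7%, 8.57% and 4.27% of all genes). DESeq2 called 49, 16 and 0 members, and 1378, 561 and 76 of all genes. The edgeR count for brazzein against sucrose rose to 17 without the first db/db brazzein liver, to 12 without the second db/+ brazzein liver and to 11 without the first. These figures describe the contrast that brought the group to notice and are no test of it. The medians by complex for brazzein against sucrose were 0.74 (I), 0.41 (II), 0.71 (III), 0.64 (IV) and 0.73 (V). The same comparison in db/+ liver, given above, had medians of 0.14, 0.37, 0.18, 0.04 and 0.23. The difference between the genotypes' responses had a median of 0.60 over the members (77 of 83 above 0). It contains the db/db contrast that brought the group to notice, so its figures are likewise a description and no test. No member was called for it by edgeR, beside 0.0672% of all genes. At an unadjusted p under 0.05 there were 50 members, beside 10.3% of all genes. DESeq2 called 11 members and 496 of all genes.

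**Figure D4:**
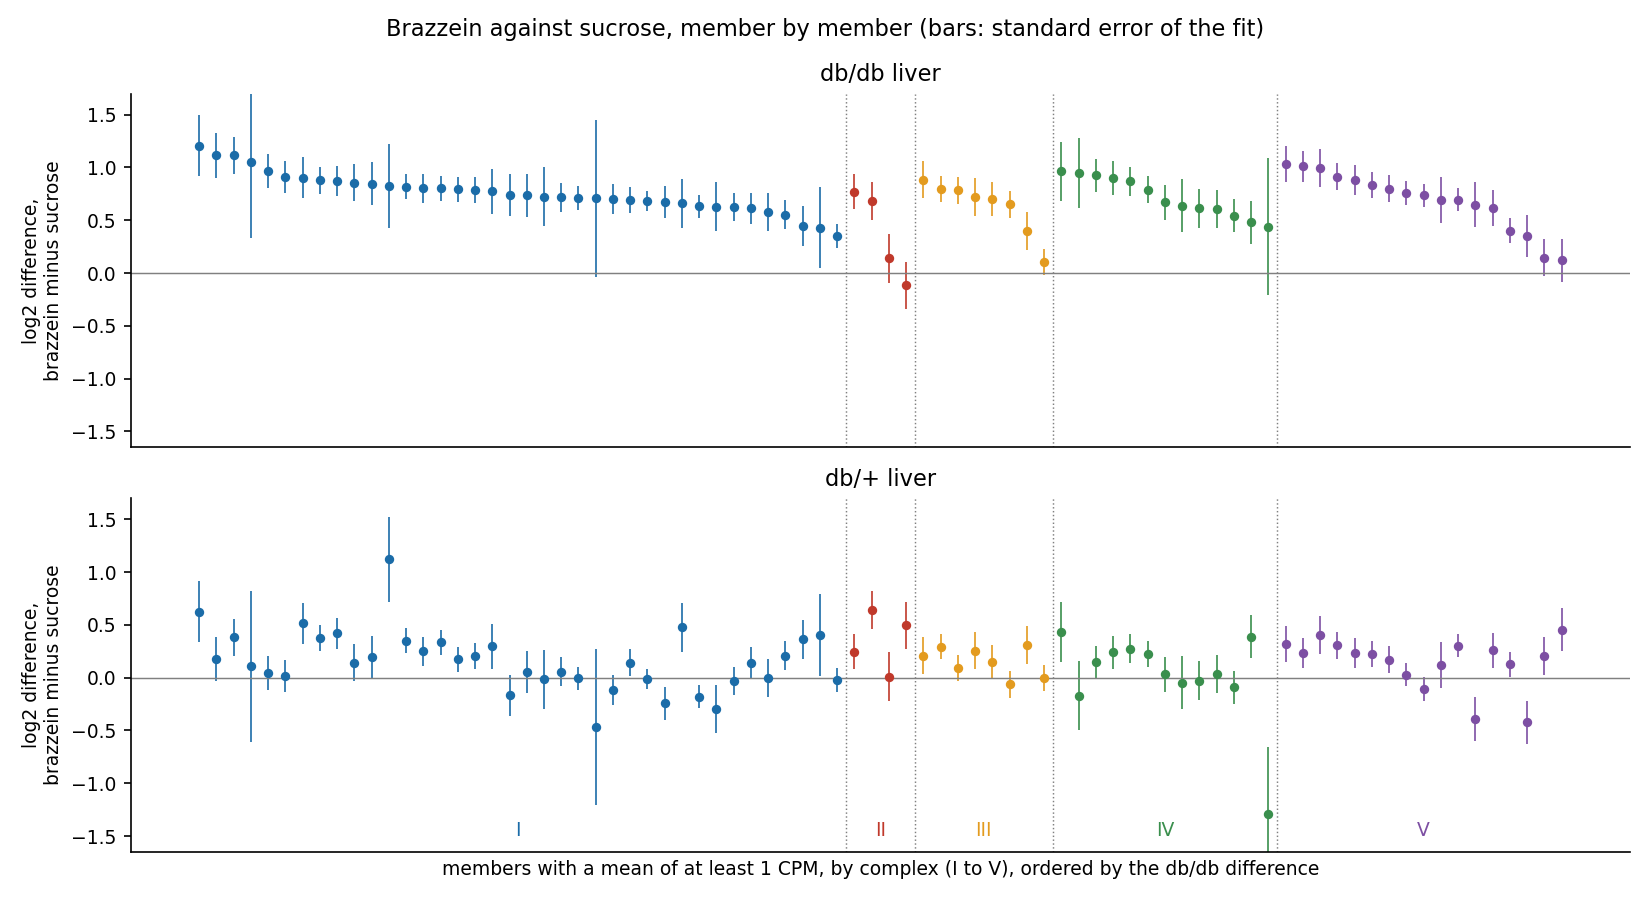
Log2 difference between brazzein and sucrose (vertical) for each of 80 members with a mean of at least 1 CPM, ordered within complexes I to V, in db/db liver (top) and db/+ liver (bottom), with bars for the standard error (the longest bars run off the axis). In db/db liver 1 point, Sdha, lies below 0, whereas in db/+ liver the points lie on both sides of 0.

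Transcript length moved with the same contrasts. Lengths were those implied by the ratio of deposited counts to coverage. Members are short: 55 of 82 with a length estimate (67.1%) were under 1000 bases, against 11.9% of 16774 other genes tested in liver. Over 6695 genes with a mean of at least 10 CPM, the deviation of a gene in a library was correlated with its length. Spearman's rho was 0.39 and 0.38 in the db/db sucrose livers and -0.27 in both db/db brazzein livers, and shorter transcripts thus stood lower in the former and higher in the latter. In the other 8 liver libraries it ranged from -0.15 to 0.24. These are correlations across genes, which are not independent.

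In each length class with members, their median lay above that of other genes of like length in db/db liver, brazzein against sucrose. The group was proposed because its members stood high in this contrast, so these values are a description. In db/db liver, brazzein against sucrose, the 45 members of 500 to under 1000 bases had a median of 0.76, against 0.43 for 1463 other genes of that length and 0.57 for the 237 of them with at least 50 CPM. The 10 members under 500 bases had a median of 0.83, against 0.42 and 0.72. For 14 members of 1000 to under 1500 bases the median was 0.69, against 0.30 and 0.42, and for 8 members of 1500 to under 2000 bases 0.42, against 0.14 and 0.24. The 5 members of 2000 to under 4000 bases had a median of 0.71, against -0.10 and 0.09. That median was the value of Ndufs1, a gene with uncertain counts. Of the same class, Sdha and Atp5a1 lay near 0, whereas Sdhc and Ndufb2 lay above the median. With the trend taken out of each library, the members' median for brazzein against sucrose was 0.22 in db/db liver (72 of 83 above 0) and 0.12 in db/+ liver (49 above 0). For brazzein against water in db/db liver it was 0.12, for sucrose against water -0.11, and for the difference between the genotypes' responses 0.16. The part of the length trend in the members' differences was not tested.

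**Figure D5:**
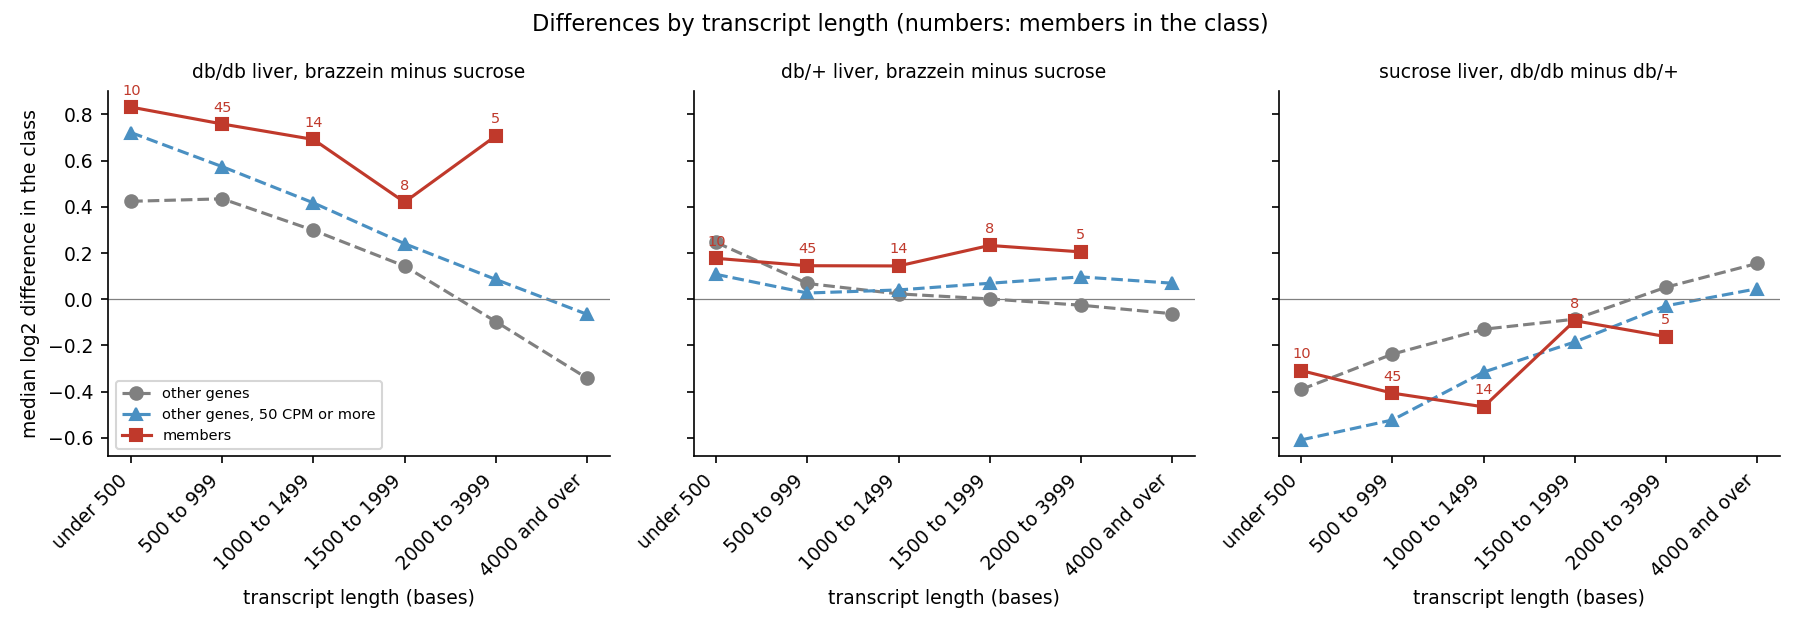
Median log2 difference (vertical) by class of transcript length (horizontal, bases) for members (red, with their number), other genes (grey) and other genes of at least 50 CPM (blue), in 3 liver comparisons. In db/db liver, brazzein minus sucrose, all 3 lines lie highest among short transcripts and the red line lies above the other 2 in each class with members. On sucrose, db/db minus db/+, the lines for other genes run the opposite way.

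Other gene groups were read from the same db/db contrast. For brazzein against sucrose the median was 0.62 for 84 cytosolic ribosomal proteins (83 above 0, and Fau called), 0.46 for 77 mitochondrial ribosomal proteins (74 above 0), 0.43 for 18 import factors (16 above 0) and 0.36 for 51 assembly factors (44 above 0). The 13 transcripts of mitochondrial DNA, which code for the partner subunits of complexes I, III, IV and V, had a median of 0.38 (12 above 0). The 14 tricarboxylic acid cycle genes had a median of 0.07, and the 14 regulators of mitochondrial biogenesis one of -0.24. Apart from Fau, no gene of these lists was called in this comparison. Cell type markers differed as well: all 5 Kupffer cell and macrophage genes lay below 0 (median -0.91), with sums of 85.4 and 88.2 CPM on brazzein and 163 and 143 CPM on sucrose. The hepatocyte sums were 92928 and 83822 CPM on brazzein and 75957 and 74029 CPM on sucrose. The part of these cell types in the members' difference was not tested.

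In brain, members differed little between groups. No member was called between db/db and db/+ brain by edgeR, beside 0.00846% of 23653 genes. At an unadjusted p under 0.05 there were 30 of 85 members, beside 13.8% of all genes. DESeq2 called 12 members and 869 of all genes. The median difference was 0.07, with 74 of 85 above 0, and 0.02 with the length trend taken out (53 above 0). The smallest p-value was that of Cox4i1, at 557 to 588 CPM in the 6 db/+ brains (median 565) and 617 to 657 CPM in the 6 db/db brains (median 624). The genotypes did not overlap, which held for 10 members and 1.86% of all genes, and the difference was 0.15 ± 0.02 (adjusted p = 0.1002, edgeR). Sdhb was at 156 to 165 CPM and 169 to 179 CPM in db/+ and db/db brain (0.12 ± 0.02, adjusted p = 0.146), also without overlap. Ndufb10 was at 114 to 125 CPM and 125 to 137 CPM (0.15 ± 0.03, adjusted p = 0.1298), with an overlap of the lowest db/db library. The correlation with transcript length differed between libraries here too: Spearman's rho was 0.26 to 0.32 in the 4 db/+ sucrose and brazzein brains, -0.06 and 0.06 in the 2 db/+ water brains and -0.18 to -0.03 in the 6 db/db brains. The summed level of the hepatocyte marker list was 714 to 1011 CPM in db/+ and 1078 to 1251 CPM in db/db brain, without overlap. In brain, Alb, Apoa1 and Serpina1a of that list averaged 0.69, 0.12 and 0.03 CPM, so nearly all of its sum came from Ttr and Cps1. The choroid plexus list summed to 49.7 to 72.9 CPM in db/+ and 69.2 to 75.9 CPM in db/db brain. The sum of the erythroid list was 856 to 1909 CPM and 1450 to 2602 CPM, and that of the neuron list 5748 to 6039 CPM and 5689 to 5988 CPM. The part of these in the members' difference was not tested.

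Between drinks, with both genotypes averaged and 4 libraries per drink, no member was called in brain, and no gene of the 23653 either (0%). The members' medians were -0.03 for sucrose against water, -0.05 for brazzein against water and -0.02 for brazzein against sucrose. At an unadjusted p under 0.05 there were 1, 7 and 2 members (5.61%, 4.61% and 4.02% of all genes), and DESeq2 called 0 in each. The smallest p-values were those of Atp5g2, another isoform of the c subunit (-0.27 ± 0.08 for sucrose against water, adjusted p = 0.875, edgeR), Ndufb6 (-0.12 ± 0.04 for brazzein against water, adjusted p = 0.993) and Ndufs1 (-0.62 ± 0.19 for brazzein against sucrose, adjusted p = 1.00). Atp5g2 was at 54.0, 67.3, 83.8 and 89.4 CPM on sucrose and at 81.6 to 96.2 CPM on water, and the 2 lowest were the db/+ libraries. Cox7b, a complex IV subunit, was at 124 to 134 CPM on sucrose, 124 to 137 CPM on brazzein and 135 to 142 CPM on water. In brain the spread of the members' median deviation over all 12 libraries was from -0.07 to 0.08, against -0.41 to 0.40 in liver.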

How the data were processed

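Poly(A) RNA of 24 libraries was sequenced after TRIzol extraction and a NEBNext Ultra II preparation, per the labels' protocols. Reads were converted with bcl2fastq and GRCm39 was the genome build, per the submitters' processing notes. No source used here names the aligner, the counting program or the gene models. The authors deposited estimated counts per gene name (expected counts, whole numbers in the files), coverage (a signal per gene) and FPKM. Genotypes came from the titles.

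The expected counts were whole as deposited and needed no rounding. Transcript length was estimated as the ratio of counts to coverage, put into bases with 4282 genes of 1 transcript in a GENCODE annotation, so it is the length the counting implied and not an annotated one. The db/+ brazzein livers were left out of that estimate. Each tissue was fitted with edgeR 4.0.16 (quasi-likelihood, TMM scaling, the tool's filter on low counts, R 4.3.3) with 1 coefficient for each of its 6 groups, and p-values were adjusted over all genes tested with the Benjamini-Hochberg method. Calls are adjusted p under 0.05. Liver and brain were compared in 1 fit over 24 libraries. Alternatives were DESeq2 1.42.0, its size factors in edgeR, no filter, the replicate number as a block, an offset that removes a smooth trend on transcript length from each library, and leaving out each library. The tests were checked on simulated counts, where none of the genes changed between brazzein and sucrose in the db/db livers was recovered, so an edgeR count of 0 in that comparison says little of whether members differed. For liver genotype over drinks, 9% of simulated 2-fold and 57% of 4-fold changes were recovered. Those simulated counts gave 68 calls, against 2937 in the data, and the adjusted p depends on how many genes differ. The shares recovered thus do not carry over to the comparison reported. For brain genotype over drinks, 55% and 92% were.

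Members and gene lists were chosen with earlier results of these data known. In each comparison, the called members are named, or the 3 of smallest p where none was called, or, over 10 calls, the 4 of greatest difference in each direction with a mean of at least 1 CPM. Also named are a panel of core subunits, the isoform pairs, the 3 highest and 3 lowest differences in db/db liver between brazzein and sucrose, and up to 3 called genes of each other list. Members named outside this rule (Atp5a1, Atp5b and Uqcrc2 in the db/db drink comparison among them) were picked after their values were seen. Same-numbered libraries did not deviate together: the correlations of their deviations ran from -0.117 to 0.0929 in liver and from -0.0493 to 0.0516 in brain.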

Additional observations from a re-analysis of the deposited data

How the results depend on the processing

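Member counts depended on the tool. DESeq2 called 6 members between genotypes on water, 20 on sucrose and 5 on brazzein, 1 each for brazzein against water and against sucrose in db/+ liver, 16 and 49 for these in db/db liver, 11 for the difference between the genotypes' responses and 12 between genotypes in brain. Without a filter, 6 members were called between liver genotypes over drinks and 1 on sucrose.

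Taking out the length trend moved the members' median log2 difference between liver genotypes to 0.084 over drinks, 0.14 on water, -0.020 on sucrose and 0.097 on brazzein. In db/db liver it moved to -0.11 (sucrose against water), 0.12 (brazzein against water) and 0.22 (brazzein against sucrose), and for the difference between responses to 0.16. In brain it moved to 0.016 for genotype and 0.020 for sucrose against water, and reversed to 0.0046 for brazzein against water. For liver against brain it was 0.25, and 1.34 with DESeq2 or its size factors. The call count on sucrose was 1. The ratio of the complex II medians, liver over brain, was 1.22 in FPKM and 1.85 in CPM scaled within each tissue. The median of the FPKM ratios of its 4 genes was 1.79, so the lower value came from taking the ratio of medians.

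The replicate numbers did not pair the libraries. With the replicate block, 1 member was called on sucrose. With block and length trend together, 0 were called on sucrose and on brazzein, and the medians were 0.079, 0.14, -0.019 and 0.090 for genotype over drinks, on water, on sucrose and on brazzein. They were -0.105, 0.12, 0.22 and 0.17 for the db/db drink comparisons and the difference between responses. In brain they were 0.016, 0.020 and 0.0042 (reversed), and for liver against brain 0.25. The cause of these moves was not tested.

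Leaving out 1 library at a time gave 2 to 14 called members between liver genotypes over drinks, 0 to 3 on water, 0 to 4 on sucrose and 0 to 1 on brazzein. It gave 0 to 2 for brazzein against water and 0 to 17 for brazzein against sucrose in db/db, 0 to 1 for the difference between responses (1 without the first db/+ brazzein liver), 84 to 85 for liver against brain and 0 in the other comparisons. The members' median ranged from -0.06 to 0.01 over drinks, -0.046 to 0.11 on water, -0.39 to -0.34 on sucrose and 0.16 to 0.29 on brazzein. In db/+ liver it ranged from 0.0041 to 0.16 (sucrose against water), 0.14 to 0.31 (brazzein against water) and 0.032 to 0.21 (brazzein against sucrose, lowest without the first brazzein liver). In db/db liver the same comparisons ranged from -0.34 to -0.27, 0.37 to 0.45 and 0.66 to 0.75, and the difference between responses from 0.47 to 0.70. In brain the ranges were 0.06 to 0.08 (genotype), -0.03 to -0.01, -0.07 to -0.04 and -0.04 to -0.01, and for liver against brain 1.40 to 1.46.

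Over all genes, DESeq2 called 4848 between liver genotypes over drinks (edgeR 2937), 2132 on water (293), 1590 on sucrose (168) and 1912 on brazzein (305). It called 225, 175 and 440 in the db/+ drink comparisons (3, 1 and 4), 76, 561 and 1378 in those of db/db liver (1, 23 and 31), 496 for the difference between responses (13), 869 between brain genotypes (2), and 73, 59 and 69 between drinks in brain (0 each).

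Each group held 2 libraries, and depth was at least 58287665 counts in every library.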
